A study of Homo sapiens with 2 samples.

Results

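The binding of KDM1B was described at 10 genes of the epithelial-mesenchymal transition (EMT). They were listed by name, by a rule that uses no measured value but with earlier results of these data known, from the 19970 protein-coding genes on chromosomes 1 to 22 and X. Of these, 8 are called mesenchymal here, namely ZEB1, ZEB2, SNAI1, SNAI2, TWIST1, CDH2, VIM and FN1, and CDH1 and EPCAM are called epithelial. KDM1B (LSD2) is a histone lysine demethylase. The data came from cells of the breast cancer line MDA-MB-231, which is triple-negative (without hormone receptors and HER2) and long established. They stably carried KDM1B with a 3xFLAG tag from the retroviral vector pOZ. There was 1 anti-FLAG ChIP library and 1 input library, both from cells with the tagged protein, and cells without the tag were not analysed here. Without replicates no value below has a replicate error, no difference between genes was tested, and read depth is unknown because the list gives ratios without counts.

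During EMT, epithelial cells give up their junctions and polarity and become migratory. The ZEB, SNAI and TWIST families are transcription factors that drive this change, and the ZEB and SNAI proteins are known to repress CDH1 (E-cadherin) by binding E-boxes in its promoter. CDH2 (N-cadherin), vimentin and fibronectin are the usual markers of the mesenchymal state, and EPCAM is a surface adhesion molecule of epithelia. MDA-MB-231 is known as a mesenchymal-like line with abundant vimentin and little E-cadherin. The libraries hold no RNA data, so that state could not be checked against the genes' own levels.

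A peak was assigned to a gene when its midpoint lay inside the gene or at most 5 kb from an end. By this rule 22 peaks were found at 8 of the 10 genes, and TWIST1 and EPCAM had none. Among all protein-coding genes 67.5% had such a peak. SNAI1, CDH1 and CDH2 together held most of the peaks, with 5, 6 and 3. ZEB1, SNAI2 and VIM had 2 each, and ZEB2 and FN1 had 1 each. At the transcription factor genes ZEB1, SNAI1 and SNAI2 a peak lay across the start of the gene, while all peaks of both cadherins lay inside the gene and away from its ends. In all, 4 of the 10 genes, ZEB1, SNAI1, SNAI2 and VIM, had such a midpoint no farther than 1 kb from one of their ends, against 41.9% of all protein-coding genes. The map of the 10 genes shows these positions.

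**Figure D1:**
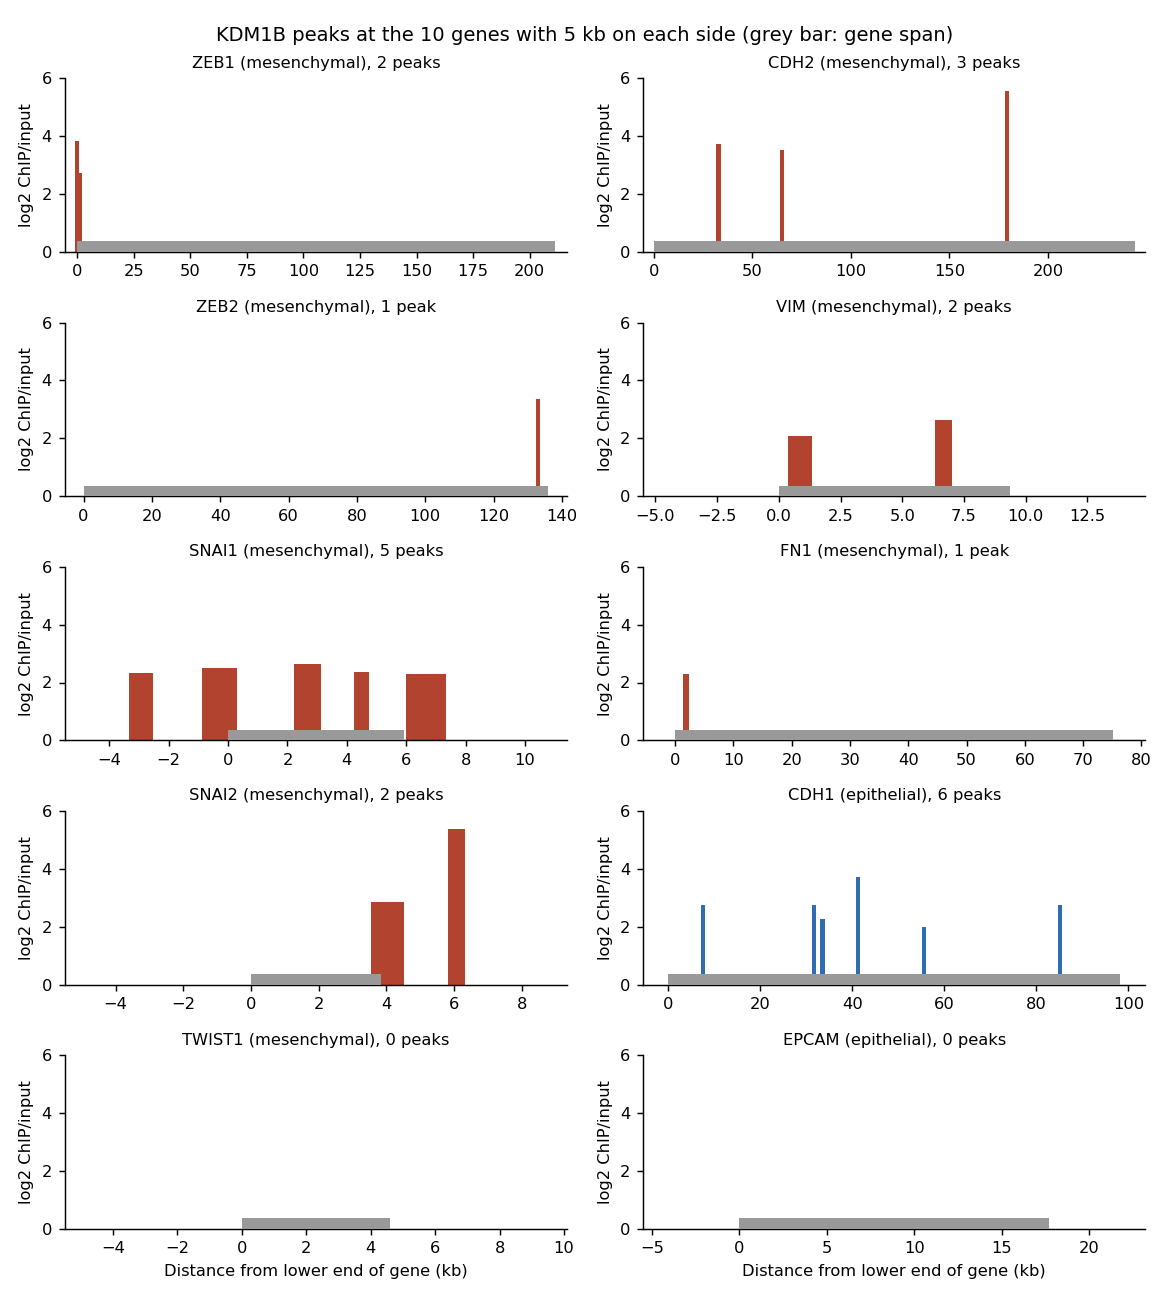
Each panel shows 1 gene with 5 kb on each side. The x axis is the distance from the gene's lower coordinate in kb, the y axis the log2 ratio of ChIP over input, each bar a peak (narrow peaks are drawn wider so that they can be seen), and the grey bar the gene span. SNAI1 has 5 low peaks in or near the gene, 2 of them centred inside it, CDH1 has 6 inside the gene, and TWIST1 and EPCAM have none.

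ZEB1 encodes a zinc finger and homeodomain repressor (chromosome 10, 31318417 to 31529804, 211 kb, hg38, plus strand). Its first peak, 31317949 to 31318538 with a log2 ratio of ChIP over input of 3.82 (this and all ratios below are the authors' values), covered the lower end of the gene, which is its annotated start. The second, 31319352 to 31320129 with a log2 ratio of 2.72, had its midpoint 1323 bp inside. Both also lay within ZEB1-AS1, a lncRNA gene that overlaps the start of ZEB1 in the opposite direction, so the peaks belong to this shared stretch as much as to ZEB1. From 1.71 kb to its upper end, the remaining 210 kb of ZEB1 held no peak.

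RefSeq (GRCh38.p14) gives ZEB1 7 promoter windows, each of 300 bases from 250 before to 50 after an annotated start, and 2 of them lay wholly under a peak. Over the protein-coding genes present among the promoter sequences used here, 30.5% of 22131 such windows were overlapped by a peak. Shown here are both ZEB1 windows under a peak, 1 of the 2 windows between the peaks (the one with E-boxes), and the ZEB2 window, which had no peak. Capitals mark E-boxes of the form CANNTG, which reads the same on both strands. This form includes CAGGTG and its reverse complement CACCTG, the core known for ZEB and SNAI proteins. Sequences run 5′ to 3′ on the strand of the gene.
ZEB1 chr10:31318167-31318466, plus strand, under the first peak: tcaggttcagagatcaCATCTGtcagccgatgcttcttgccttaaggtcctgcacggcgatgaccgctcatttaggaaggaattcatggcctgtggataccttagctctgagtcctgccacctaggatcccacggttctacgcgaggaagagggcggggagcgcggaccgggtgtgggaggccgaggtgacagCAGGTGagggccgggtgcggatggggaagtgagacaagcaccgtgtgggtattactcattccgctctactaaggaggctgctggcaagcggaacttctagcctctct
ZEB1 chr10:31318966-31319265, plus strand, between the peaks: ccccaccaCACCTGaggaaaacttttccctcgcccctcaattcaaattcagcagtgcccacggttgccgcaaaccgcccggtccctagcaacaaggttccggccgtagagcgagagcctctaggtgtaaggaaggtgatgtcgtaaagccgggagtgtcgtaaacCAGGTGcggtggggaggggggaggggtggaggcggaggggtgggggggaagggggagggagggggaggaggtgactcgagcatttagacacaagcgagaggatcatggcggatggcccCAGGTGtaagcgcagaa
ZEB1 chr10:31319518-31319817, plus strand, under the second peak: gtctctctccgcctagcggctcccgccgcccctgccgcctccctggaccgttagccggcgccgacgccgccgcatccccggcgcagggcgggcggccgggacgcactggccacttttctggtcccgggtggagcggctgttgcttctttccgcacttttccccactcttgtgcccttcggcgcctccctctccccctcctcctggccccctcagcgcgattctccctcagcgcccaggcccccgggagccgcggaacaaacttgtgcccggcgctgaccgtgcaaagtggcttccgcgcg
ZEB2 chr2:144520070-144520369, minus strand, no peak: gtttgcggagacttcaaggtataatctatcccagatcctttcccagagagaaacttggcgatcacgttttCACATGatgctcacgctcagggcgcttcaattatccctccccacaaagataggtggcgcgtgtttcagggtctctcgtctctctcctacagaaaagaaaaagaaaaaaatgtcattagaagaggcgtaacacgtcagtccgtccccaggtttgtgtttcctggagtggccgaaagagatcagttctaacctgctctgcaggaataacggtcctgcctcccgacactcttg

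The first ZEB1 window held 17 CpG dinucleotides, 1 CATCTG and 1 CAGGTG. The window shown from between the peaks, 87 bp from the nearer one, held 17 CpG dinucleotides and 3 core E-boxes. The other window there, 30 bp from the nearer peak, held 27 CpG dinucleotides and no CANNTG. The window under the second peak was richer in CpG, with 35, and held no E-box. The single ZEB2 window held 14 CpG dinucleotides and a CACATG, with no core E-box. Among all 22131 windows 19.98% held the core and 65.1% any CANNTG. For windows overlapped by a peak these shares were 17.1% and 56.8%, and for the others 21.3% and 68.7%. The median CpG number was 29 in windows with a peak and 15 in those without. These matches describe the letters of the windows only. The windows of VIM, CDH2 (2 windows) and FN1 had no peak and no core E-box. SNAI1, SNAI2, TWIST1, CDH1 and EPCAM were not among the promoter sequences used here, and their starts are named below from background knowledge of their strand.

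ZEB2, the paralog of ZEB1 (chromosome 2, 144384081 to 144520119, 136 kb, minus strand), had 1 peak. It lay at 144516508 to 144517591, had a log2 ratio of 3.35, and its midpoint was 3070 bp inside the annotated start. The nearest edge of the peak was 2479 bp from the promoter window shown above. The other 132 kb of the gene, up to its lower end, held no peak. Both ZEB genes thus had their peaks across the start or within the first few kb, and none in the long body. They differed in that the start at the end of the gene was covered in ZEB1 and not in ZEB2. This contrast is uneven, because ZEB1 has 7 annotated promoter windows, most of them without a peak, and ZEB2 has 1.

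SNAI1 (Snail, a zinc finger repressor; chromosome 20, 49982980 to 49988886, 5.91 kb) had the highest peak density of the 10 genes. Its 5 peaks covered 29.8% of the gene with 5 kb on each side. Their log2 ratios were 2.32, 2.49, 2.65, 2.37 and 2.31 in order of position, all in the lower part of the list, whose median was 2.99. The second peak, 49982109 to 49983269, covered the lower end, the known start of SNAI1. A further pair lay inside the gene, another was centred 2919 bp below it, and another was centred 758 bp above its upper end.

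SNAI2 (Slug, a close relative of SNAI1; chromosome 8, 48917598 to 48921429, 3.83 kb) had 2 peaks. The first, 48921154 to 48922110 with a log2 ratio of 2.85, covered the upper end, the known start of this gene. The second, centred 2236 bp beyond that end, had a log2 ratio of 5.40, higher than 96.7% of all peaks, and the smallest width of the list, 500 bp. Both midpoints lay in the neighbouring lncRNA gene LOC107986942, and none lay within SNAI2 itself. TWIST1, a basic helix-loop-helix factor (chromosome 7, 19113047 to 19117636, 4.59 kb), had no peak. The nearest peaks were 1002 kb below and 803 kb above it, a stretch of 1809 kb without any peak.

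The cadherins CDH1 and CDH2 differed in the number and the ratios of their peaks. CDH1 (chromosome 16, 68737292 to 68835537, 98.2 kb) had 6 peaks, all inside the gene, with log2 ratios of 2.75, 2.76, 2.26, 3.72, 2.0 and 2.74 from the lower to the upper end. Its lower end is its known start. The nearest peak there, 68744646 to 68745146, was centred 7604 bp inside, and no peak lay within 29.4 kb below the gene. The peaks covered 3.92% of CDH1 with its flanks. The midpoint of the last one lies in the pseudogene FTLP14.

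CDH2 (chromosome 18, 27932879 to 28177130, 244 kb, minus strand) had 3 peaks in a longer gene than CDH1. Their log2 ratios were 3.72, 3.52 and 5.57 from the lower to the upper end, and they covered 0.639% of the gene with its flanks. The nearest peak to the annotated start at the upper end was centred 64868 bp away. All 3 ratios of CDH2 lay above the list median, against 1 of 6 in CDH1. In CDH2, 2 ratios, 3.72 and 5.57, and the 3.72 of CDH1 were whole multiples of a common linear step of 2.64, as was the 5.40 at SNAI2. In the whole list 12.4% of peaks had this form, as would arise where the ChIP reads are a whole multiple of the input reads, for example over a single input read. The counts behind the ratios are unknown, so whether few input reads lie behind these 4 peaks was not tested. Without such peaks CDH2 kept 1 peak and SNAI2 kept 1.

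VIM encodes vimentin, an intermediate filament protein (chromosome 10, 17228241 to 17237593, 9.35 kb, plus strand). Its first peak, 17228595 to 17229603, had a log2 ratio of 2.07, higher than 3.59% of all peaks, and was centred 858 bp inside the start. It began 305 bp beyond the promoter window and lay also within the overlapping lncRNA gene VIM-AS1. The second, 17234584 to 17235256, had a log2 ratio of 2.64 and lay in the later part of the gene.

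FN1 encodes fibronectin, an extracellular matrix glycoprotein (chromosome 2, 215360865 to 215436068, 75.2 kb, minus strand). Its only peak, 215362290 to 215363205 with a log2 ratio of 2.29, was centred 1882 bp inside the lower end, which is its 3′ end. There FN1 overlaps the end of ATIC, a purine synthesis gene on the plus strand, over 7.73 kb. ATIC had 14 peaks covering 46.5% of it with its flanks, and the FN1 peak is one of them. The 72.9 kb of FN1 above the peak, its start included, held none.

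EPCAM (chromosome 2, 47369311 to 47387020, 17.7 kb) had no peak either. In contrast to TWIST1, it lay in a region with many: 102 peaks were found between 5 and 500 kb on both sides. The gap around EPCAM measured 54.6 kb, from 23.9 kb below the gene to 13.0 kb above it.

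Each gene was ranked among the 500 protein-coding genes nearest to it in length, as a description without a test. SNAI1 stood highest, with more peaks than 85.4% of them, and its covered share exceeded that of 86.4%. SNAI2 followed with 65.0%, CDH1 with 60.4%, VIM with 54.2% and CDH2 with 52.6%. ZEB1 had more peaks than 40.8%, FN1 than 22.6% and ZEB2 than 19.2% of its genes of like length. TWIST1 and EPCAM shared their count of 0 with 42.0% and 30.4% of theirs. SNAI1 was the one gene of the 10 above the 75th percentile of its genes of like length, which is 3 peaks for that length. When ranked among the 100 nearest in length on the same chromosome, ZEB1 moved from 40.8% to 25% and CDH1 from 60.4% to 48%. CDH2 stood at 57% in that ranking, so the order of the 2 cadherins turned, while SNAI1 stood at 88% and SNAI2 at 70%. The rank of SNAI1 was 76.4% with the gene span only and 99.2% with peaks within 1 kb joined. With only peaks at or above the list median it was 0, because SNAI1 then had none, and CDH2 stood at 66.4% and CDH1 at 30.0%. Without whole multiples of the step CDH2 stood at 28.4% and CDH1 at 59.0%.

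**Figure D2:**
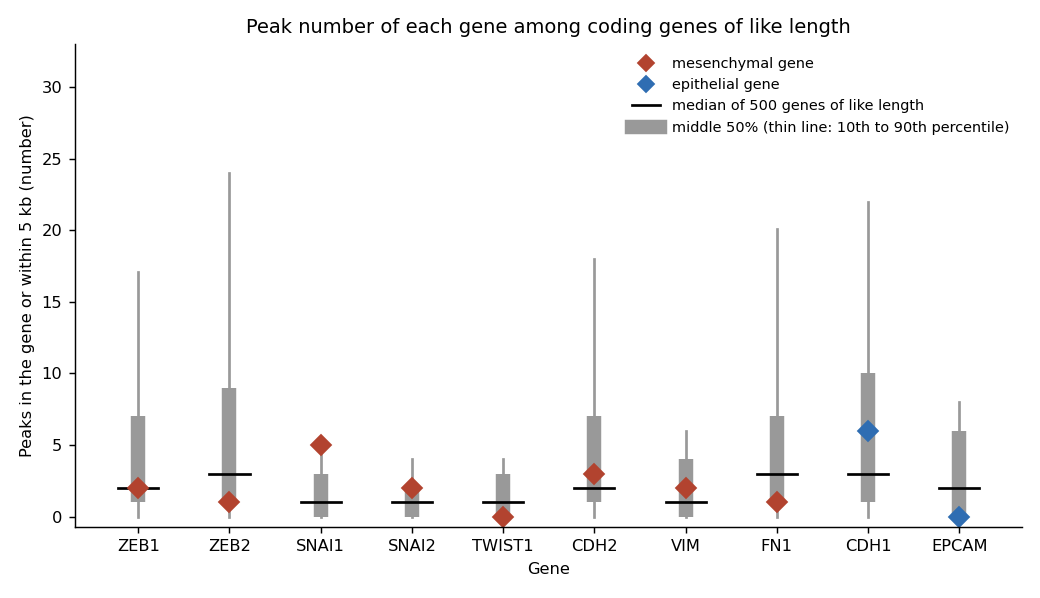
The y axis gives the number of peaks in the gene or within 5 kb, and each diamond is 1 of the 10 genes. Black lines are medians over the 500 coding genes nearest in length, grey bars the middle 50% and thin lines the 10th to 90th percentile; SNAI1 with 5 peaks lies above its grey bar and the other genes lie within or at the edge of theirs.

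Mesenchymal and epithelial genes were then set side by side. Of the 8 mesenchymal genes 7 had a peak (87.5%, exact Clopper-Pearson 95% interval 47.3 to 99.7%, counting error only), and of the 2 epithelial genes 1 (50%, 1.26 to 98.7%). Summing the shares of their genes of like length gives 5.45 of 8 and 1.5 of 2. Mesenchymal genes with their flanks held 16 peaks, or 2.08 per 100 kb (exact Poisson 95% interval 1.19 to 3.37), and epithelial genes 6, or 4.41 per 100 kb (1.62 to 9.61). All protein-coding genes together held 5.41 per 100 kb, with a peak counted in each gene it lies near. That value is not matched for gene length. For the long genes ZEB1, ZEB2 and CDH2 the medians of their genes of like length were 2, 3 and 2 peaks. The Poisson intervals take no account of the clustering of peaks along the genome, so they give no comparison with 5.41. Both kinds of interval treat named genes or peaks of 1 library as independent draws, so they give no comparison of the groups either. All 6 epithelial peaks are those of CDH1. The median share of like-length genes with fewer peaks was 46.7% for the mesenchymal and 30.2% for the epithelial genes, the latter midway between 60.4% for CDH1 and 0 for EPCAM. A peak within 1 kb of a gene end was found in 4 of 8 mesenchymal and 0 of 2 epithelial genes. The 2 epithelial genes themselves hold the lowest and the highest peak number of the 10, 0 and 6, and every mesenchymal count lies from 0 to 5.

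The surroundings of the 10 genes differed widely. Between 5 and 500 kb on both sides, CDH1 had 113 peaks, EPCAM 102 and SNAI1 100, more than 85.1%, 81.2% and 80.3% of protein-coding genes had around them. VIM had 32, FN1 20 and ZEB1 19. SNAI2 had 8, ZEB2 5, CDH2 1 and TWIST1 0 peaks. CDH1 thus had 5.54 peaks per 100 kb (2.03 to 12.1) in a setting of 11.4 per 100 kb. SNAI2 had 14.5 (1.75 to 52.2) in a setting of 0.808, and SNAI1 31.4 (10.2 to 73.4) in one of 10.1. CDH2 had 1.18 (0.243 to 3.45) in a setting of 0.101. VIM had 10.3 in a setting of 3.23, and ZEB2 0.685 in one of 0.505. Lower than their settings were also ZEB1 (0.903 against 1.92), FN1 (1.17 against 2.02) and EPCAM (0 against 10.3). TWIST1 had 0 in both. The like comparison over all coding genes was not determined, so these values are not read as a trait of either group. Without the whole multiples of the step, SNAI2 and CDH2 each rest on 1 peak. The density around CDH2 rests on 1 peak, and these intervals take no account of the clustering of peaks along the genome.

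**Figure D3:**
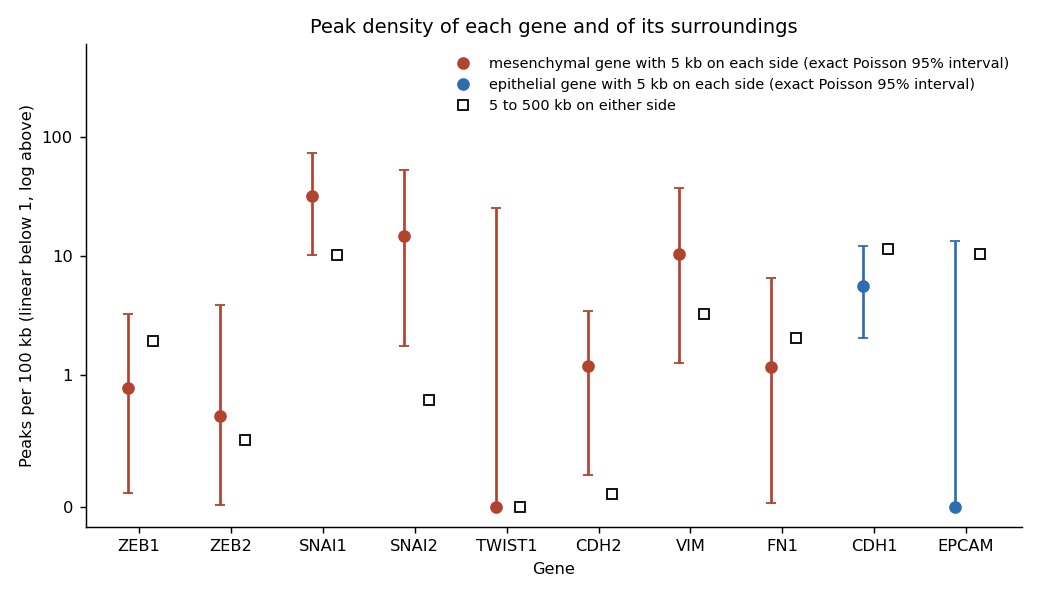
The y axis gives peaks per 100 kb, linear below 1 and logarithmic above. Filled circles are the genes with 5 kb on each side, with exact Poisson 95% intervals, and open squares the stretch from 5 to 500 kb on both sides; the surroundings run from 0 at TWIST1 to 11.4 at CDH1.

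Pooled over genes, the members' peaks were mostly weaker than the typical peak of the list. Their median log2 ratio was 2.73 over 22 peaks, against 2.99 over 78536, and 15 of the 22 lay below the list median. Many of those 15 are peaks of SNAI1 and CDH1. By gene, the median log2 ratio lay above 2.99 at ZEB1 (3.27), ZEB2 (3.35), SNAI2 (4.13) and CDH2 (3.72). It lay below 2.99 at SNAI1 (2.37), VIM (2.35), FN1 (2.29) and CDH1 (2.74). The medians over pooled peaks were 2.69 for the mesenchymal and 2.74 for the epithelial genes. Widths ran from 500 to 1341 bp, with a median of 754 bp against 804 bp in the list. Counting only peaks at or above the list median left 7 peaks at the 10 genes, and SNAI1, VIM and FN1 then had none. Of the 22 midpoints, 7 lay inside another annotated gene, 5 of them in a lncRNA gene. The like share over all peaks was not determined, so this count is not read as a trait of these genes.

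**Figure D4:**
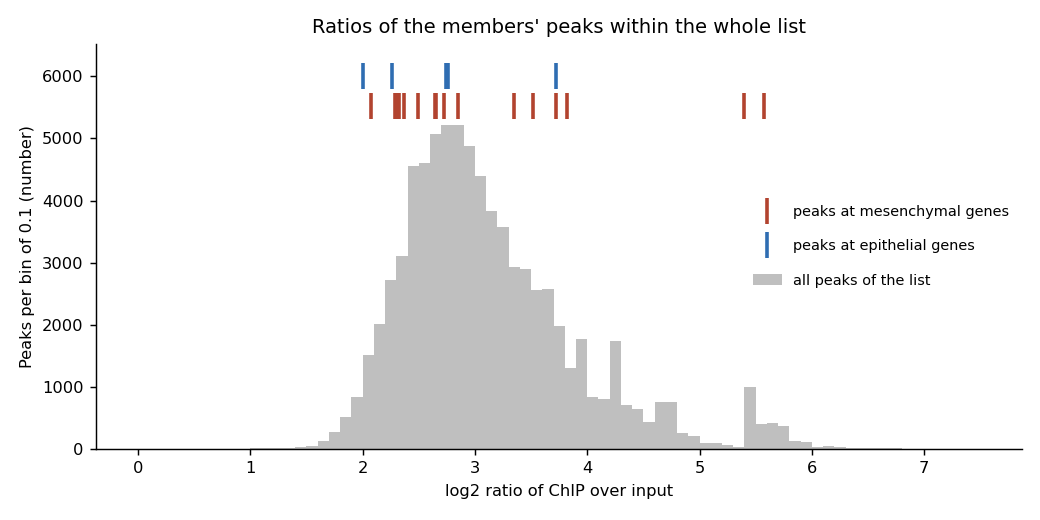
The x axis is the log2 ratio of ChIP over input and the y axis the number of peaks per bin of 0.1. Grey bars are all peaks of the list and coloured marks the peaks at mesenchymal and epithelial genes; most marks lie left of the list median of 2.99, and the peaks at SNAI2 (5.40) and CDH2 (5.57) lie far right.

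Related genes from lists written from textbook knowledge place the 10 genes in context. Other mesenchymal genes and EMT factors had a peak in 25 of 32 cases (78.1%, 60.0 to 90.7%), against 22.2 from genes of like length. They were led by LOXL2, a lysyl oxidase of the matrix (37 peaks), CD44, the hyaluronan receptor (24), and TCF3, an E-protein partner of TWIST1 (17). Other epithelial genes had one in 20 of 30 (66.7%, 47.2 to 82.7%), against 19.98. The leading genes were TJP1 (10 peaks) and TJP3 (7), which encode tight junction scaffolds, and the membrane protease gene ST14 (7). A peak within 1 kb of a gene end was present in 59.4% of the mesenchymal and 30.0% of the epithelial list, with 41.9% of all coding genes as background. The median share of like-length genes with fewer peaks was 61.0% for the mesenchymal and 43.6% for the epithelial list. The genes named first in each list lead by peak number, which is not matched for gene length. The differences between these lists were not tested.

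The cadherin family had a peak in 15 of 23 genes (65.2%, 42.7 to 83.6%), against 17.4 from genes of like length, and the median was 1 peak per gene. The median share of like-length genes with fewer peaks was 26.4%. CDH4 (R-cadherin, 688 kb) stood apart with 68 peaks. It was followed by CDH13 (T-cadherin, 1174 kb) with 24 and CDH23 (419 kb), a cadherin of hair cell tip links, with 7. CDH1 came next with 6, and CDH2 was sixth with 3. CDH3 (P-cadherin), the neighbour below CDH1, had 2. Among genes of like length, CDH4 had more peaks than 99.4%, CDH13 than 96.4% and CDH23 than 81.0%. Of the 23 genes 1 (4.35%) had a peak within 1 kb of an end, CDH4, against 41.9% of all coding genes. The catenins, which link cadherins to the cytoskeleton, had a peak in 5 of 7 genes (71.4%, 29.0 to 96.3%), against 5.24 from genes of like length. CTNNA1 (alpha-catenin) had 23 peaks, CTNND1 (p120) 11 and CTNNB1 (beta-catenin) 7. For this list the median share of like-length genes with fewer peaks was 49.2%.

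Genes for co-repressors of SNAI1 and ZEB1 had a peak in 13 of 14 cases (92.9%, 66.1 to 99.8%), against 10.6 from genes of like length. Their median was 11 peaks per gene, against 2 over all protein-coding genes, which are shorter (median length 24.2 kb against 51.6 kb). The median share of like-length genes with fewer peaks was 80.5% for this list. CTBP2, a partner of ZEB1, had 51 peaks, SIN3A, the scaffold of a deacetylase complex, 25, and SUZ12, a Polycomb subunit, 22. The one without a peak was HDAC2. A peak within 1 kb of an end was present in 11 of the 14 (78.6%), with 41.9% of all coding genes as background.

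**Figure D5:**
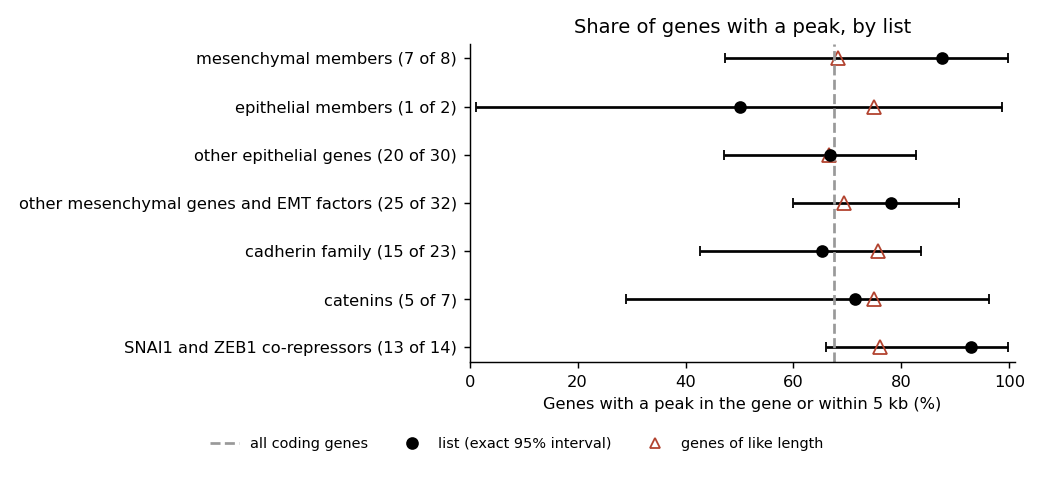
The x axis gives the percentage of genes with a peak in the gene or within 5 kb. Circles with bars are lists with exact 95% intervals, triangles the value from genes of like length, and the dashed line all coding genes at 67.5%; the co-repressor list lies farthest right at 92.9%, and its interval and those of the other lists are wide.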

How the data were processed

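One anti-FLAG ChIP library and 1 input library were compared by the authors, whose deposited list gives chromosome, start, end and a log2 ratio for each of 78536 peaks. The submitters' processing notes name Trim Galore 0.4.5, Bowtie2 2.2.9 and the build hg38. Which program called the peaks, its thresholds and its scaling were not given in the sources used here. Coordinates are printed as deposited. That the values are log2 ratios follows from a common step: for 99.9% of peaks the linear value, divided by a step of 2.64, was a fraction of whole numbers (denominators up to 399, tolerance 1e-06 on the value divided by the step), against 9.61% of random values.

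Gene spans came from RefSeq GRCh38.p14, and strand from its promoter sequences. Covered share is the share of a gene with 5 kb on each side under peaks. Counting used Python 3.11.15 with numpy 2.4.6 and scipy 1.17.1, and was tested on simulated data, with 0 mismatches in 300 genes. Intervals cover counting error only. The members and lists were chosen with earlier results of these data known. All members are named, and of each other list the 3 genes with the most peaks. CDH1 and CDH2 are also part of the cadherin list. Other distances, any overlap, stronger peaks, joined peaks, peaks off whole multiples of the step and other choices of like-length genes were tried.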

Additional observations from a re-analysis of the deposited data

How the results depend on the processing

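With only peaks at or above the list median, 4 of the 8 mesenchymal genes had a peak and 7 peaks remained at the 10 genes, while 55.7% of all coding genes had one. Under the other distances, any overlap, joining and removal of whole multiples, the counts of genes and the total of 22 peaks stayed within 1.5 times. TWIST1 and EPCAM had no peak in any of these settings. With the gene span only, SNAI2 had 0 peaks, SNAI1 2 and ZEB1 1. Joining peaks within 1 kb left 1 at ZEB1. The cause was not tested beyond what each setting removes. No paired analysis was possible because each group holds 1 library. Ranks among genes of like length were less stable: 30 of 100 alternative values by peak number and 28 of 100 by covered share left the exact 95% interval of the reported share. Each 100 includes the values of TWIST1 and EPCAM, which could not move because no gene has fewer than 0 peaks. The ranks of the other genes were therefore less stable than these counts show. Depth is unknown, so no counting error could be given for a ratio.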

Other observations

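Some related genes outside the naming rule were picked after their values were seen. Among mesenchymal genes, AXL, a receptor tyrosine kinase, was covered by peaks over 71.7% of its length with 5 kb on each side (14 peaks). TGFB1, the cytokine that induces EMT in many cells, was covered over 54.1% (16 peaks). Among co-repressors, the DNA methyltransferase gene DNMT1 was covered over 85.1% (10 peaks) and CTBP1 over 71.5% (6 peaks). Among epithelial genes, the claudin gene CLDN7 was covered over 48.1% (4 peaks). By peak number, TGFB1 exceeded 99.6% of its genes of like length, CLDN7 89.6%, AXL 84.2%, DNMT1 72.4% and CTBP1 60.8%. Covered shares of their genes of like length are not given here.

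In the list of other epithelial genes 10 of 30 had no peak, a share close to that of all coding genes (66.7% against 67.5% with one). Regulators of the epithelial state stood on both sides, chosen here after their values were seen. Without a peak by the midpoint rule were GRHL2, a grainyhead factor whose gene spans 189 kb, the splicing regulator ESRP1 (66.3 kb), and the transcription factors OVOL1 and ELF3. At OVOL1, 1.17% of the gene with 5 kb on each side was still under a peak whose midpoint lay outside. The paralogs ESRP2 and OVOL2 had 4 peaks and 1 peak, and the transcription factor genes KLF5 and EHF had 4 and 2. Among mesenchymal genes, PRRX1, POSTN and the 259 kb actin-binding protein gene CALD1 had none.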
